A study of Citrus reticulata and Citrus x clementina and Citrus x paradisi with 16 samples.

Results

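In citrus ovules of 'Cocktail' grapefruit (GF) and 'Huanong red' pummelo (PU), 108 annotated loci had reads in all libraries of one cultivar and almost none in the other. A locus was taken as silent in a cultivar when it had under 3 counts in each of the 4 libraries of that cultivar. It was taken as expressed when it reached at least 1 CPM (counts-per-million of the library total) in each of the 4 libraries of the other. Only loci that carried a gene of the sweet orange reference were kept, 17192 of the 22595 loci in the GF/PU table. Of the 108 loci, 85 were silent in PU and 23 were silent in GF. A further 2 annotated loci met these limits and are not described here. The counts of GF and PU chose the loci, so the difference between the cultivars is described without a test.

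Ovules were profiled by mRNA sequencing in 16 libraries, 2 for each cultivar and stage. GF is polyembryonic, meaning that embryos also arise from the maternal nucellus, and was sampled at nucellar embryo initiation (NEI, 3 days after flowering) and just before it (pre-NEI, day 0). PU is monoembryonic and was sampled on the same days, so that its stage names mark matching days. The mandarins 'Huagan No.2' Ponkan (PK, polyembryonic) and 'Nour' clementine (CM, monoembryonic) were sampled at day 7 (NEI) and day 3 (pre-NEI). Per the study's methods, each library came from many ovules pooled over hand-pollinated trees, with replicates from consecutive years. Each group is thus 1 cultivar, and an effect of polyembryony and one of the remaining genetic background cannot be told apart. In pooled ovules, fewer cells of a type and less RNA per cell cannot be told apart.

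Nucellar embryony is a form of apomixis, in which cells of the nucellus, the maternal tissue around the embryo sac, divide and form embryos without fertilization. The species compared have a shared ancestry. By the study's account, grapefruit has long been held to be a hybrid of pummelo and sweet orange. Sweet orange itself is supposed to descend from pummelo and mandarin. The study gives no pedigree of the 'Cocktail' cultivar. Genes with transcripts in one genotype and none in a relative are common among plants. They include genes that are missing, broken or not switched on in the relative, and in plants many belong to quickly changing families such as resistance genes. RNA counts do not show which of these holds.

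The locus totals were 13.0 to 34.2 megacounts (M) in the GF libraries and 11.8 to 19.2 M in the PU libraries. A count of 0 therefore allows up to 3 counts, which is 0.0877 to 0.231 CPM in GF and 0.156 to 0.253 CPM in PU. Such floors, and the intervals below, cover counting error only. They allow neither for the spread between libraries nor for the choice of loci by these same counts. The ratios and intervals of GF and PU are thus a description and no test. Of the ovule marker list, a BEL1-like homeodomain protein 1 (orange1.1t04599) was the single gene annotated in the tables used here, and no GF/PU locus carried it, so the tissue could not be checked against ovule markers. Of the other markers, the small subunit of Rubisco, a protein of green tissue (Cs6g18680), had 38.3 to 111 CPM in GF, against 115 to 305 CPM in PU. A pollen-specific protein c13-like gene (Cs3g18550) had 79.5 to 199 CPM in GF, against 139 to 319 CPM in PU. The part of these tissues in the silent loci was not tested.

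Silence across a whole cultivar was rare among annotated genes. Of 13964 annotated loci expressed in all GF libraries, 87 had under 3 counts in every PU library (0.623%, with the 2 loci set aside). Of 14038 annotated loci expressed in all PU libraries, 23 had under 3 counts in every GF library (0.164%). The GF libraries were deeper on the whole, which makes the limit of 3 counts stricter there. With one CPM limit for both cultivars (0.253 CPM, the level of 3 counts in the shallowest library, chosen after the data were seen), 109 loci were silent in PU and 43 in GF. Loci without a reference gene were silent more often, at 4.45% of 1506 loci expressed in GF and 2.34% of 1623 loci expressed in PU. In the mandarins the direction was the other one, with 0.0815% of 13493 annotated loci expressed in PK silent in CM and 0.307% of 13036 expressed in CM silent in PK. Reads of PK and CM were aligned to the clementine genome, the species of CM, and those of GF and PU to sweet orange. The part of the reference genome in these shares was not tested. Loci just above the limit were also few. In PU, 91 of the loci expressed in GF had 3 to 9 counts at most and 202 had 10 to 29, against 13584 with 30 or more. In GF, the same classes held 33, 183 and 13799 loci expressed in PU.

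**Figure D1:**
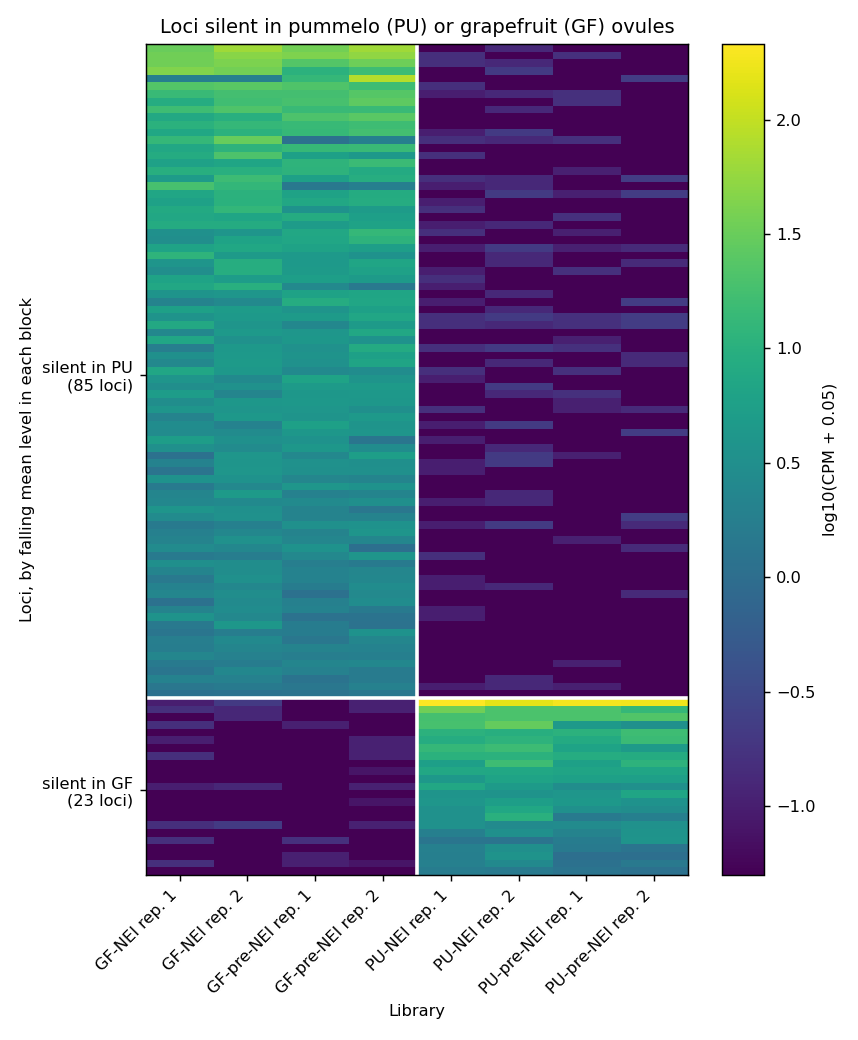
Heat map of the level of the 108 silent loci (rows) in the 4 GF libraries (left) and the 4 PU libraries (right), as log10(CPM + 0.05), with loci ordered by falling mean level within the 85 silent in PU (top) and the 23 silent in GF (bottom). The dark blocks hold at most 2 counts in any library, while the bright blocks run from 1.14 to 49.7 mean CPM in GF (top) and from 1.36 to 182.5 mean CPM in PU (bottom).

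The 85 loci silent in PU had 53279 counts in the GF libraries and 151 in the PU libraries. Of them, 21 had no count in any PU library, 36 had counts in 1 PU library, 17 in 2 and 11 in 3 or 4. No locus had more than 8 counts over the 4 PU libraries. The level in GF had a median of 4.20 mean CPM, against 29.7 for all annotated loci expressed in GF. A limit of 3 counts is met more easily by low loci than by high ones, so the choice itself favours low levels in both directions. In GF 14 of the 85 loci reached at least 10 mean CPM, 41 had 3 to under 10 and 30 had under 3. The 23 loci silent in GF had 44 counts in the GF libraries and 21154 in the PU libraries. Of them, 9 had no count in any GF library and the largest sum over the 4 was 6. Their median level was 4.60 mean CPM in PU, against 33.5 for all annotated loci expressed in PU, and 6 of the 23 reached at least 10 mean CPM.

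Only 4 of the 108 loci carried a named function in the tables of the study, and all 4 were silent in PU. By the words of these tables, 1 fell in the class of proteolysis, 1 in that of kinases, 1 in that of disease resistance and 1, a carboxylesterase, in none of the classes looked for. No locus fell in the classes of cell wall, transcription, translation, transport or transposon-derived genes. This says little about the silent loci, since only those 4 had words to sort them by. A further 14 loci were listed in these tables without a function, and 90 were not listed. The first is a cysteine proteinase 15A-like gene (XLOC_015091, Cs7g24410, chromosome 7 of the sweet orange genome, 24166857 to 24169802, minus strand). Papain-type cysteine proteinases break down proteins, mostly in vacuoles, and act in seed development, senescence and the programmed death of plant cells. The gene had 255 and 401 counts in GF at NEI and 20 and 61 in GF at pre-NEI, against 2 and 1 in PU at NEI and 2 and 0 in PU at pre-NEI. The limits themselves place every GF library above every PU library. Both NEI libraries of GF lay above both of its pre-NEI libraries, as in 26.7% of annotated loci expressed in GF. The ratio of GF to PU was 107 (95% exact counting interval 45.8 to 332).

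The second is a probable carboxylesterase 2 (XLOC_016695, Cs8g05630 and Cs8g05700, chromosome 8, 3243890 to 3292952, minus strand). Plant carboxylesterases split ester bonds of small molecules. The locus had 163 and 265 counts in GF at NEI and 107 and 144 in GF at pre-NEI, against 2 and 0 in PU at NEI and none in PU at pre-NEI. It spans 2 reference genes and overlaps 2 other loci, of which one reached 2248 counts in a PU library, so its position was not without reads in PU. A putative kinase (XLOC_003726, Cs2g13320, chromosome 2, 10017307 to 10021146, minus strand), of the enzyme class that transfers phosphate to proteins or other molecules, had 151 and 50 counts in GF at NEI and 44 and 163 in GF at pre-NEI. In PU it had 2 and 1 counts at NEI and 2 and 2 at pre-NEI, which puts it at the edge of the limit, with a ratio of GF to PU of 42.4 (interval 20.4 to 106). A TIR-NBS-LRR resistance protein locus (XLOC_010477, Cs5g20340 and Cs5g20350, chromosome 5, 21519052 to 21524900, minus strand) belongs to the intracellular immune receptors that detect pathogen proteins. It had 61 and 38 counts in GF at NEI and 33 and 52 in GF at pre-NEI, against 0 in each PU library, which makes it at least 11.2-fold higher in GF against a floor of 3 counts per library. None of the 108 loci was among the predicted miRNA targets in the tables of the study. The study lists such targets for a small part of the genes, so this absence says little about the silent loci.

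The other 104 loci had no named function in these tables, and they are described by level and position. Ranked by mean CPM, which is not scaled for length, the highest locus silent in PU was XLOC_007556 (Cs4g16480, chromosome 4, 16082582 to 16087285, plus strand, 5 transcripts). It had 611 and 853 counts in GF at NEI and 680 and 2225 in GF at pre-NEI, against 0 and 1 in PU at NEI and none in PU at pre-NEI. A single read in PU thus stood against 4369 in GF, and the ratio of GF to PU was 3182 (interval 571 to 125694). XLOC_020629 (orange1.1t01267, unplaced, 21150810 to 21155326) had 672, 625, 786 and 1817 counts in the GF libraries, against 2, 0, 2 and 0 in the PU libraries, with NEI replicates first in both. XLOC_013257 (Cs7g02210, chromosome 7, 759121 to 765502) had 680, 533, 427 and 1156 counts in GF, against 2, 1, 0 and 0 in PU in the same order. The ratios of GF to PU were 710 and 679, and the limits themselves keep GF and PU from overlapping in any silent locus. XLOC_013257 overlaps XLOC_014355, which reached 911 counts in a PU library, so its position was not without reads in PU.

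XLOC_013276 (Cs7g02830, chromosome 7, 1132894 to 1134381, 1 transcript) had 842 and 464 counts in GF at NEI and 204 and 545 in GF at pre-NEI, against 2 counts in 1 PU library at NEI and none in the other 3. XLOC_017771 (Cs9g08660, chromosome 9, 5838638 to 5839348) had 35 and 24 counts in GF at NEI and 241 and 2920 in GF at pre-NEI, against 2 counts in 1 PU library at pre-NEI. Its mean of 25.5 CPM in GF thus rested on replicate 2 of pre-NEI, where it had 85.4 CPM, against 1.81 to 12.9 CPM in the other 3 GF libraries. The 5 further loci of the 10 highest had 15.7 to 21.4 mean CPM in GF and lay on chromosomes 9 (XLOC_018584, XLOC_018591 and XLOC_018046), 3 (XLOC_006094) and 2 (XLOC_003237). The last of these (Cs2g30790, chromosome 2, 30084477 to 30088283) had 150, 125, 381 and 860 counts in GF, against 0 in all 4 PU libraries, and was at least 92.0-fold higher in GF. Among the 21 loci without a PU count it had the highest such bound, and the lowest was 6.07.

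**Figure D2:**
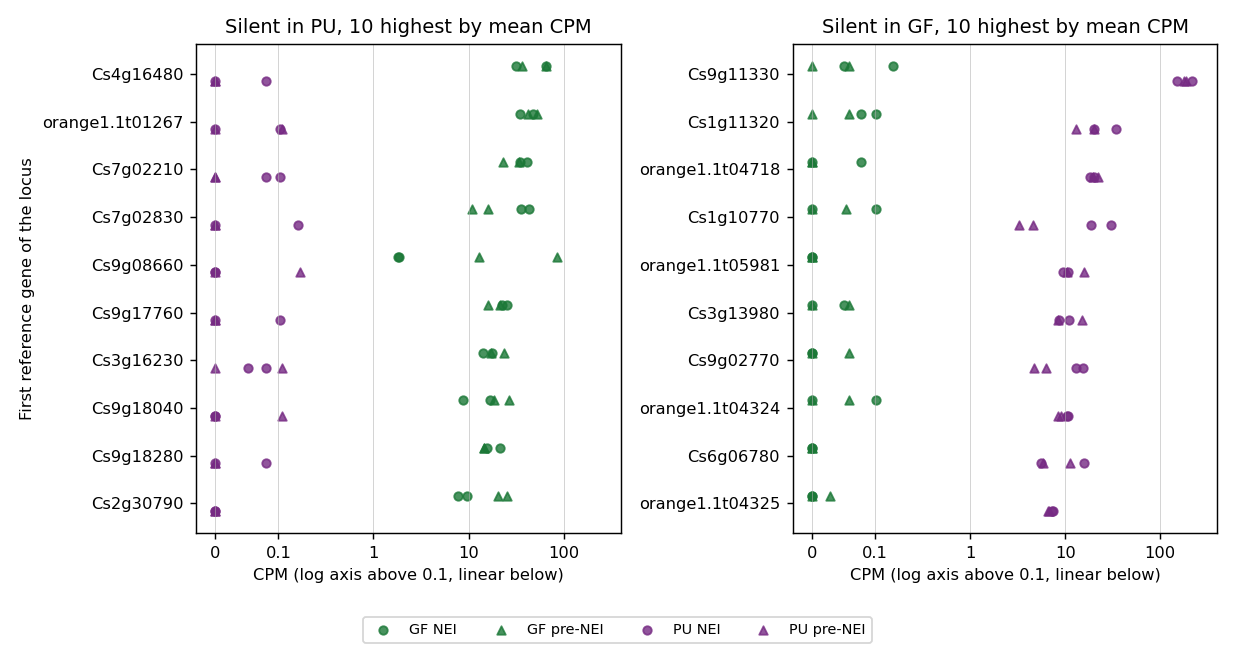
Level in CPM (horizontal axis, logarithmic above 0.1 and linear below) of the 10 loci with the highest mean CPM among those silent in PU (left panel) and silent in GF (right panel). Points are single libraries of GF (green) and PU (purple) at NEI (circles) and pre-NEI (triangles). Every point of the silent cultivar lies below 0.2 CPM, and Cs9g08660 has the widest spread in GF, from 1.81 to 85.4 CPM.

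In the other direction, the highest locus silent in GF was XLOC_017831 (Cs9g11330 and Cs9g11390, chromosome 9, 8919481 to 9139069, plus strand). It had 1, 2, 0 and 2 counts in the GF libraries, against 4115, 1895, 3423 and 2117 counts in the PU libraries, with NEI replicates first. The ratio of PU to GF was 3172 (interval 1359 to 9771). Another of its 6 transcripts reached 16 counts in a GF library, so the locus as a whole was not empty in GF. XLOC_000317 (Cs1g11320, chromosome 1, 13865325 to 13868383) had 2, 1, 0 and 2 counts in GF, against 664, 252, 376 and 153 in PU. XLOC_020096 (orange1.1t04718, unplaced, 74892981 to 74895214) had a single count in GF, against 354, 252, 366 and 263 counts in PU. Its level in PU ran over a narrow range, 18.5 to 22.2 CPM.

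XLOC_000300 (Cs1g10770, chromosome 1, 13027636 to 13043531) had 2 and 0 counts in GF at NEI and 1 and 0 in GF at pre-NEI, against 362 and 376 in PU at NEI and 84 and 39 in PU at pre-NEI. Its NEI libraries in PU lay clear of its pre-NEI libraries. The remaining 6 of the 10 highest had 7.02 to 11.6 mean CPM in PU. They were XLOC_020956, XLOC_006015, XLOC_017554, XLOC_021448, XLOC_011630 and XLOC_020021. Of these, XLOC_020956 (orange1.1t05981) had no GF count and was at least 80.8-fold higher in PU, and XLOC_011630 (Cs6g06780) was at least 62.1-fold higher in PU. XLOC_020956 overlaps XLOC_019545 (orange1.1t05865), also silent in GF, and XLOC_021448 overlaps XLOC_020021. Each such pair may hold the same reads and is not separate evidence.

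The levels per length, given by the deposited FPKM of each group with replicates pooled and summed over the transcripts of a locus, had no SD. Among loci silent in PU they had medians of 4.77 FPKM in GF at NEI and 4.90 in GF at pre-NEI. Among loci silent in GF the medians were 7.995 FPKM in PU at NEI and 6.75 in PU at pre-NEI. The FPKM was 0 in both groups of the silent cultivar for 49 of the 85 and 14 of the 23 loci. It was above 1 in a group of the silent cultivar for 3 loci. In XLOC_015345 (Cs7g31240) it was 3.15 in GF and 2.43 in PU at NEI, and 2.29 in GF and 1.98 in PU at pre-NEI, and another transcript of the locus reached 61 counts in a PU library. XLOC_001180 (Cs1g09406 and 3 more genes) had 16.7 FPKM in GF and 1.96 in PU at NEI. XLOC_017831 had 3.42 FPKM in GF and 102 in PU at NEI. With every transcript of a locus held to the limit of 3 counts, an alternative chosen after the data were seen, 80 loci were silent in PU and 21 in GF.

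The loci just inside and just outside the limits show how close the call can be. Among loci silent in PU, orange1.1t01070 (XLOC_019184) had 2 counts in each PU library and Cs6g05420 (XLOC_012328) had 2, 2, 2 and 0, both inside with Cs2g13320. Just outside were Cs1g26440, with 4477, 2233, 465 and 1034 counts in GF and 3, 0, 0 and 0 in PU, Cs2g07030 and Cs2g23945. On the level limit, Cs6g16935, orange1.1t05985 and Cs7g06960 lay just inside, at 1.02, 1.04 and 1.07 CPM in their lowest GF library. Outside it, orange1.1t02798, orange1.1t05255 and Cs2g09310 had 0.994, 0.983 and 0.964 CPM. Among loci silent in GF, Cs3g14040, Cs1g11320 and Cs9g11330 lay just inside, with 5 or 6 counts over the GF libraries. Just outside were Cs2g28530, orange1.1t03773 and orange1.1t05375, each with 3 counts in 1 GF library. For example, orange1.1t03773 had 0, 0, 0 and 3 counts in GF, against 314, 599, 191 and 128 in PU. By level, orange1.1t00797, orange1.1t03450 and orange1.1t01630 lay just inside (1.01, 1.08 and 1.10 CPM) and Cs6g02240, Cs6g16680 and Cs8g05270 just outside (0.962, 0.882 and 0.864 CPM).

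The loci had properties that the choice did not use. Their main transcripts were short and simple beside those of other expressed genes. Among loci silent in PU the median transcript length was 1180 bases, against 1938 for all annotated loci expressed in GF. A single transcript was assembled for 32 of the 85, against 19.2% of all. Among loci silent in GF the median length was 902 bases, against 1932 for loci expressed in PU, and 10 of 23 had a single transcript, against 19.5%. The median GC content was 39.17% in loci silent in PU and 39.23% in loci silent in GF, against 41.38% and 41.39% in all expressed loci. The silent loci also had the lower levels given above, which the choice favours, and the part of level in these properties was not tested. Of the loci silent in PU, 10 spanned more than 1 reference gene, as did 2 of those silent in GF.

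Some positions held reads of the silent cultivar at another locus. Of the 85 loci silent in PU, 32 overlapped another locus of the table, and in 18 of these the overlapping locus had 3 or more counts in a PU library. XLOC_018584 (Cs9g17760 and Cs9g17770) had 436, 330, 401 and 548 counts in GF, against 2, 0, 0 and 0 in PU, while its overlapping locus reached 1390 counts in PU. Of the 23 loci silent in GF, 11 overlapped another locus, and in 4 of these an overlapping locus had 3 or more counts in a GF library. How often other expressed loci overlap another locus was not counted, so overlap is not given as a trait of the silent loci. The strand setting of the counts is not given in the sources used here, so reads from overlapping loci cannot be told apart by strand.

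By chromosome, 17 loci silent in PU lay on chromosome 7 and 17 on unplaced sequence, with 10 each on chromosomes 1 and 2. Per annotated locus expressed in GF this was 0.976% on chromosome 7 and 0.892% on unplaced sequence, against 0.275 to 0.733% on the other chromosomes. A stretch of 3.09 Mb on chromosome 7 (18393616 to 21484494), picked after the positions were seen, held 6 of the loci, from Cs7g21180 to Cs7g23055, among 88 annotated loci expressed in GF. The loci silent in GF had 10 members on unplaced sequence, 5 on chromosome 1, 3 each on chromosomes 3 and 9, and 1 each on chromosomes 6 and 8. Chromosomes 2, 4, 5 and 7 held none of them.

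**Figure D3:**
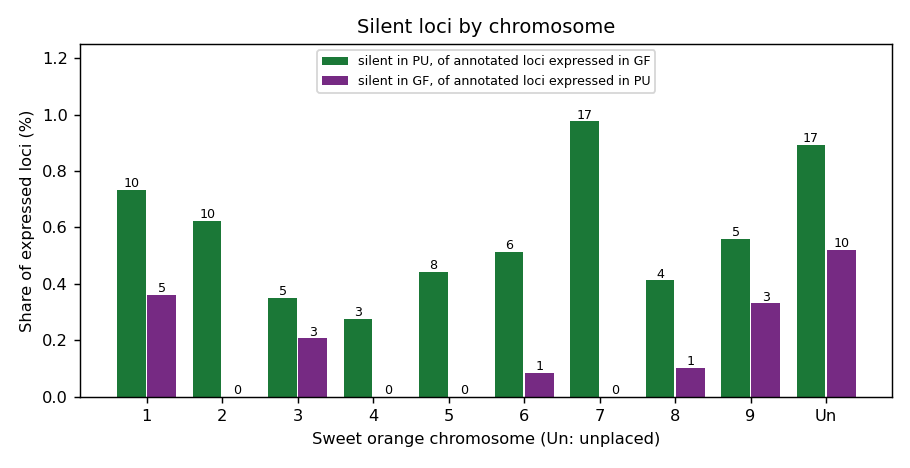
Share of annotated expressed loci (vertical axis, %) that were silent in the other cultivar on each sweet orange chromosome (horizontal axis, Un for unplaced sequence), with green bars for loci silent in PU, purple bars for loci silent in GF and the number of loci above each bar. Chromosome 7 has the highest share silent in PU among the placed chromosomes (0.976%, 17 loci) and none silent in GF.

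Part of the silent loci lay next to each other. On the placed chromosomes, 14 of 68 loci silent in PU (20.6%) had another locus silent in PU as their nearest annotated neighbour on one side or the other, while 0.918% of all 14707 placed annotated loci had such a neighbour. Of these 14, 12 had a neighbour that did not overlap them. For loci silent in GF it was 2 of 13 (15.4%), against 0.177% of all. On the placed chromosomes, 10 pairs of silent loci lay within 100 kb of each other, and in each pair both loci were silent in the same cultivar. With 68 placed loci silent in PU and 13 in GF, most pairs would match in any case. How often other annotated loci lie this close was not counted. The loci of the pair XLOC_006094 and XLOC_006095 overlap and may hold the same reads. The 10 pairs spanned 7.72 to 149 kb. Chromosome 2 carried 2 such pairs. In the pair at 30084477 to 30095117, Cs2g30790 stood beside XLOC_003238 (Cs2g30800 and Cs2g30810), which had 64, 51, 139 and 451 counts in GF, against 2, 0, 1 and 0 in PU. On chromosome 1, Cs1g11320 stood beside XLOC_000318 (Cs1g11330), with 0, 0, 0 and 1 counts in GF, against 77, 68, 79 and 42 in PU. On chromosome 4, Cs4g16480 stood beside XLOC_008281 (Cs4g16530), with 40, 44, 43 and 77 counts in GF, against 0, 0, 1 and 0 in PU. Both loci of this pair overlap XLOC_008278, which reached 19 counts in a PU library. Differences of 2-fold were about as frequent in the neighbours that were not silent as in other genes. Of 122 neighbours of loci silent in PU, 31.1% differed at least 2-fold between GF and PU, and of 23 neighbours of loci silent in GF, 26.1% did, against 28.8% of 13966 other annotated loci. The directions were less alike. Of the 122, 20 were higher and 18 lower in GF, and of the 23, 1 was higher and 5 lower. Of the 13966, 1360 were higher and 2664 lower in GF. This difference in direction was not tested.

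The stages, NEI and pre-NEI, were compared within the expressing cultivar, since the choice of loci set the same minimum at both. None of the 85 loci silent in PU passed the test in GF and none of the 23 loci silent in GF passed it in PU, at an adjusted p under 0.05 and a log2 fold change of at least 1 (edgeR quasi-likelihood test, Benjamini-Hochberg over 19943 loci). In that test no locus of the whole table was called in either cultivar (0% of loci), and the smallest adjusted p was 0.0817 in GF and 0.0521 in PU. At an unadjusted p under 0.05 there were 7 of the 85 loci in GF, 4 higher and 3 lower at NEI, against 16.8% of all loci tested. In PU there were 2 of the 23, both higher at NEI, against 21.0%. The median log2 fold change of NEI over pre-NEI was 0.00 over the 85 loci in GF and 0.16 over the 23 loci in PU, with -0.02 and 0.00 over all loci tested.

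Other tests called a few loci. The edgeR exact test, used by the study, called 5 of the 85 loci in GF (6.48% of all loci were called), 4 higher at NEI (3.78%) and 1 lower at NEI (2.7%). DESeq2 called 6 of the 85 in GF (6.18% of all loci), 4 higher at NEI (3.41%) and 2 lower at NEI (2.77%). In PU the exact test called 1 of 23 loci, higher at NEI (2.27%), and DESeq2 also called 1 (8.58% of all loci). Both NEI libraries lay above both pre-NEI libraries in GF in 22 of the 85 loci (26.7% of annotated loci expressed in GF), and below in 22 (25.7%). In PU they lay above in 11 of the 23 loci (30.7% of annotated loci expressed in PU) and below in 2 (23.8%). For the loci silent in GF this was above more often and below less often than the background, which was not tested. Of these 23 loci, 4 overlap another silent locus and may hold the same reads. By the called shares and the order of their GF libraries, the loci silent in PU were near the background of their cultivar. At an unadjusted p under 0.05 their share was lower than that of all loci. The called shares are over all loci tested, for which 1 CPM in 2 libraries was enough. They are thus not matched to the silent loci for level or annotation.

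The loci that these tests called, chosen after their values were seen, are given with their values. The cysteine proteinase 15A-like gene Cs7g24410 had 22.1 ± 12.5 CPM in GF at NEI and 1.43 ± 0.504 CPM in GF at pre-NEI (SD, n = 2 each). Its log2 fold change was 3.92 ± 0.67 (SE), with an adjusted p of 0.105 by the edgeR quasi-likelihood test and 3.55e-07 by the exact test. Cs7g27770 (XLOC_014141, chromosome 7, 28458978 to 28460427) had 359 and 165 counts in GF at NEI and 26 and 62 in GF at pre-NEI, against 1 and 1 in PU at NEI and none in PU at pre-NEI. Its log2 fold change was 3.33 ± 0.51 (adjusted p 0.105 by the edgeR quasi-likelihood test and 2.42e-05 by the exact test). In both genes the higher of the pre-NEI libraries lay well below the lower of the NEI libraries.

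Cs9g08660 had the opposite sign, with a log2 fold change of -4.73 ± 1.06 (adjusted p 0.137 by the edgeR quasi-likelihood test and 1.01e-06 by the exact test). Without GF-pre-NEI replicate 2, which held 2920 of its counts, the value was -2.75 (edgeR quasi-likelihood adjusted p 0.695). Cs7g22210 (XLOC_013973, chromosome 7, 19829415 to 19831184) had 145 and 126 counts in GF at NEI and 47 and 48 in GF at pre-NEI, with a log2 fold change of 2.17 ± 0.61 (adjusted p 0.187 by the edgeR quasi-likelihood test and 0.0253 by the exact test). Cs7g02830 had 1.60 ± 0.55 (adjusted p 0.239 and 0.0123 by the same edgeR tests). DESeq2 alone also called Cs2g30790, with a log2 fold change of -1.36 (adjusted p 0.0492 by DESeq2) and of -1.37 ± 0.40 by the edgeR quasi-likelihood test (adjusted p 0.209). In PU, Cs1g10770 had 24.5 ± 7.97 CPM at NEI and 3.91 ± 0.877 CPM at pre-NEI (SD, n = 2 each), a log2 fold change of 2.49 ± 0.67 (adjusted p 0.125 by the edgeR quasi-likelihood test and 0.00689 by the exact test).

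**Figure D4:**
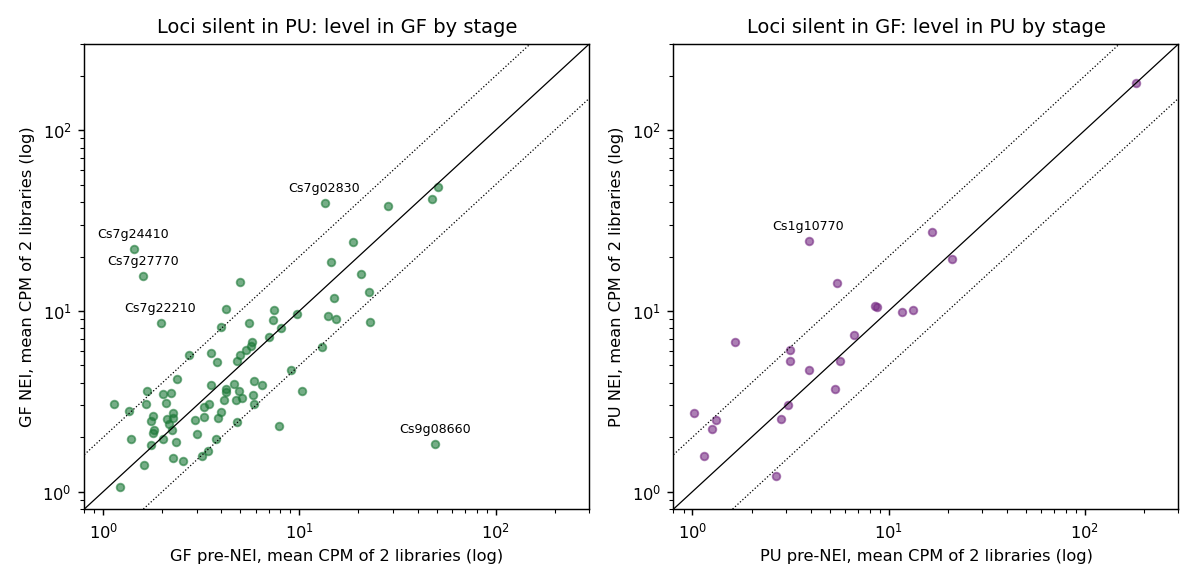
Mean CPM of 2 libraries at NEI (vertical axis) against pre-NEI (horizontal axis), both logarithmic, for the 85 loci silent in PU in GF (left panel) and the 23 loci silent in GF in PU (right panel). The solid line marks equal levels and the dotted lines a 2-fold difference. The named genes are those called by the exact test, with Cs7g24410 at 22.1 against 1.43 CPM in GF, and most other loci lie between the dotted lines.

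In the mandarins, loci paired with the silent ones could be looked up in a list that the study drew up from genes differing in both cultivar pairs. That list was chosen on these libraries, so it fixes the direction of most of its entries, and its pairs are given as a description. It paired 12 of the 85 loci silent in PU with 18 PK/CM loci. In 16 of these 18, all PK libraries lay above all CM libraries (6.74% of 18749 PK/CM loci did), and in none did they lie below. It paired 6 of the 23 loci silent in GF with 9 PK/CM loci, and in all 9 the PK libraries lay below the CM libraries (6.4% of PK/CM loci did). The list thus shows its own choice of direction and is no separate evidence.

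Some of the pairs were silent in a mandarin as well. Of the 12 loci silent in PU, 5 had a partner that was silent in CM and expressed in PK (0.349% of all loci expressed in PK were). They were Cs4g16480, Cs7g24410, Cs7g27770, Cs2g09370 and Cs5g22430. The partner of Cs4g16480 (XLOC_002101, scaffold 10 of the clementine genome, 296882 to 301322) had 702 and 726 counts in PK at NEI and 691 and 670 in PK at pre-NEI, against 0 in each CM library. That of Cs7g24410, also named cysteine proteinase 15A-like (XLOC_008753, Ciclev10031865m.g, scaffold 4, 6959289 to 6961933), had 738 and 102 counts in PK at NEI and 213 and 289 in PK at pre-NEI, against 1, 0, 2 and 0 in CM. In PK the counts at NEI lay on either side of those at pre-NEI, whereas in GF they lay above. The partner of Cs7g27770 (XLOC_009588) had 142 and 66 counts in PK at NEI and 35 and 32 in PK at pre-NEI, against 2, 0, 0 and 1 in CM, and its NEI libraries lay above its pre-NEI libraries in PK as in GF.

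Partners of the other loci with a named function did not meet the limits for silence in CM and expression in PK. The carboxylesterase 2 partner XLOC_018364 had 61.0 to 258 CPM in PK, against 1.05 to 12.2 CPM in CM. The TIR-NBS-LRR partner XLOC_007038 had 3.87 to 13.4 CPM in PK, against 0.411 to 2.38 CPM in CM. The kinase partner XLOC_002848 had 1.02 to 6.96 CPM in PK, against 0.103 to 1.27 CPM in CM, and these ranges overlapped. The list gave the kinase locus 2 further partners. XLOC_004654 had 40, 4, 44 and 9 counts in PK, against 0, 0, 3 and 2 in CM. XLOC_004490 had 16, 11, 12 and 18 counts in PK, against 0 in each CM library, and it missed the limit of 1 CPM in PK.

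Of the 6 loci silent in GF, 4 had a partner silent in PK and expressed in CM (0.91% of all loci expressed in CM were). They were orange1.1t04324, orange1.1t05899, orange1.1t05084 and orange1.1t00797. The partner of orange1.1t00797 (XLOC_013559, scaffold 6, 12925132 to 12929050) had 2, 0, 1 and 1 counts in PK, against 440, 374, 427 and 545 in CM. That of orange1.1t05899 (XLOC_005650) had 1, 1, 0 and 0 counts in PK, against 588, 387, 255 and 378 in CM. The list gave orange1.1t04324 3 partners, each silent in PK, and the highest of them (XLOC_019792) had 15.8 to 36.7 CPM in CM. The locus orange1.1t05084 had a partner (XLOC_002938) with no PK count and 23, 35, 23 and 71 counts in CM. Counting only entries with 1 clementine and 1 sweet orange identifier, 4 loci in both directions together had a partner silent in a mandarin, against 9 over all entries. Over all entries, 3 loci had a partner with 0 counts in each library of the silent mandarin.

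**Figure D5:**
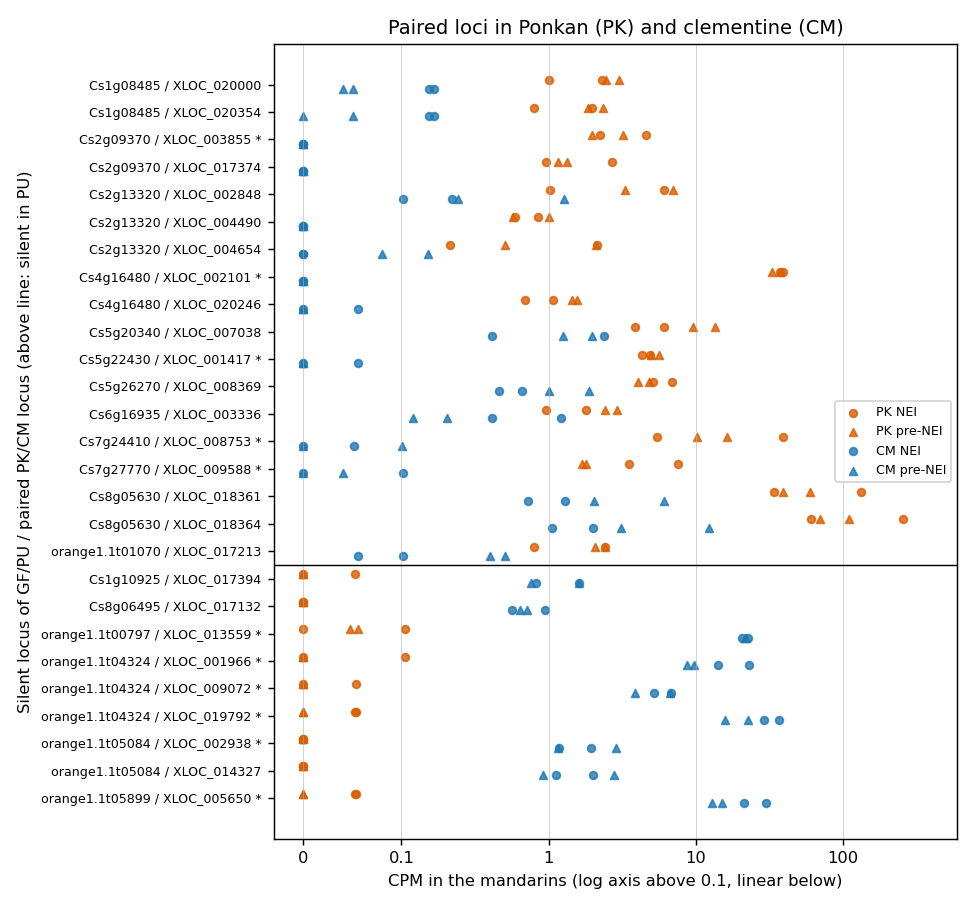
Level in CPM (horizontal axis, logarithmic above 0.1 and linear below) of the PK/CM loci that the study's list pairs with silent loci of GF/PU, in single libraries of PK (orange) and CM (blue) at NEI (circles) and pre-NEI (triangles). Rows above the line are partners of loci silent in PU and rows below it of loci silent in GF, and a star marks a partner that was itself silent in CM or PK. The starred partners of Cs4g16480, Cs2g09370 and orange1.1t05084 have no count in the silent mandarin.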

How the data were processed

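The authors deposited, per the file headers, a whole-number expression value for every assembled transcript in each library, read here as a read count, and an FPKM value (per length and depth) for each group over its pooled replicates. The deposited GC content (%) is that of each assembled transcript. TopHat and Bowtie, with up to 2 mismatches, had aligned reads to sweet orange (GF/PU) or clementine (PK/CM), and Cufflinks had assembled them. Versions, genome builds, the counter and the strand setting are not given in the sources used here. Reads differing more from the reference than this limit are lost. This can differ between GF and PU and between PK and CM, which was not tested.

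Reads seem to have been counted again for each isoform, so the transcript with the largest total gave the count of a locus. Counts were scaled to CPM of the locus totals (11.8 to 34.2 M in GF/PU). The members and gene lists were chosen with earlier results of these data known. Stages were tested by quasi-likelihood in edgeR 4.0.16 under R 4.3.3 (TMM, at least 1 CPM in at least 2 libraries, 8 libraries in 4 groups). Alternatives were the edgeR exact test, DESeq2 1.42.0, other filters, scalings and transcript sums, a replicate block and leaving out each library. Named genes were, in each direction, the 10 with the highest mean CPM, those with a function in the study's tables, those nearest each limit, those with a silent mandarin partner, and those called by stage. Bounds written "at least" take 3 counts per library as the floor, and ratios use the counts as they are. The p-values measure library spread within a cultivar and stage only, and GF or PU is 1 cultivar each. Columns of pooled FPKM served as a description only. No sequences were used here.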

Additional observations from a re-analysis of the deposited data

How the results depend on the processing

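The number of silent loci depended on the limits. With 0 counts required in each silent library, 21 loci were silent in PU and 9 in GF. With under 3 counts summed over the 4 silent libraries, 14 were silent in GF. With at least 5 CPM, the numbers were 18 and 8, and with counts summed over transcripts, which enlarges the totals, 14 and 9. With the CPM limit chosen after the data were seen, 43 were silent in GF. Leaving out a library gave 87 to 113 loci silent in PU and 24 to 32 silent in GF, since fewer libraries had to meet the limits. By stage, no locus of the 85 in GF was called by the edgeR quasi-likelihood test, 5 by the exact test and 6 by DESeq2, and of the 23 in PU 1 and 1. Over all loci the exact test called 1292 in GF and 852 in PU, and DESeq2 1232 and 1712. With a minimum of 5 CPM, 6 loci were called in PU. Leaving out a library gave 0 to 1 loci in GF and 0 to 41 in PU, the highest without PU-pre-NEI replicate 1, and none among the silent loci. Loci with a partner silent in a mandarin numbered 4 with 1 identifier each, and over all entries 3 with 0 counts in each silent library.

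Replicate numbers were not taken to pair the libraries, since the sources used here give the years of collection but not which number is which year. The shifts between replicates correlated at 0.055 to 0.614 between groups. Between the 2 stages of a cultivar, which the tests compare, the value was 0.480 in GF and 0.109 in PU. The lowest value, 0.055, was between GF at pre-NEI and PU at NEI, which no test compared. With replicate number as a block, 2 of the 85 loci in GF (461 of all) and 0 of the 23 in PU (507 of all) were called, the 2 being Cs7g24410 (adjusted p 0.0435, edgeR quasi-likelihood) and Cs7g27770 (0.0486). No stage value of the 7 genes given above changed sign in 16 alternatives.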
